A study of Mus musculus with 6 samples.

Results

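The 36 genes described here encode enzymes, inhibitors, receptors and transporters of sphingolipid metabolism. They were taken by symbol from a table of 55487 gene rows, and each of the 36 symbols matched exactly 1 row. Sphingolipid synthesis begins at the endoplasmic reticulum, where serine palmitoyltransferase joins serine to palmitoyl-CoA and later enzymes turn the product into ceramide. Ceramide is the branch point of the pathway: it becomes sphingomyelin or glycosphingolipids, is phosphorylated, or is cut by ceramidases to sphingosine. Sphingosine kinases phosphorylate sphingosine to sphingosine phosphate (S1P), a ligand of G-protein-coupled receptors, and a lyase and phosphatases remove it. In macrophages these lipids are known for their part in membrane domains, phagosomes, lysosomes and migration.

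Polyadenylated RNA was sequenced from macrophages grown for 8 days from the bone marrow of wild-type female Balb/c mice aged 6 to 12 weeks, in medium with 20% L929 fibroblast conditioned medium. All cells then spent 24 hours with 10 ng/mL of IL-4 and 10 ng/mL of IL-13, which drive alternative (M2) activation. The NP group (n = 3) received nanoparticles of poly(lactide-co-glycolide) at 200 µg/mL for 24 hours and the PBS group (n = 3) received the vehicle. The NP samples are titled PEMA, a term not explained in the sources used here. The comparison asks how the particles alter expression in M2-polarized macrophages, and here it is read for sphingolipid genes. Whether the samples came from separate cultures or animals is not stated in the labels. The p-values therefore cover the spread among these samples alone, and that spread may be technical.

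Total counts ran from 41974957 to 69450411 per library, the NP libraries were all deeper than the PBS libraries, and 3 counts equalled 0.0432 to 0.0715 CPM (the count scaled to the depth of the library). Along the first principal component of expression, which held 85.9% of the variance, NP 2 lay at 9.05 and NP 1 and NP 3 at 19.6 and 15.5, with the PBS libraries at -16.3 to -13.2. PBS 2 and PBS 3 stood apart in another way, with 136 and 150 CPM over 1768 receptor genes of the olfactory and vomeronasal families, while the other 4 libraries had 9.62 to 12.4 CPM. The 8 macrophage markers summed to 12000 to 12400 CPM in PBS and 9390 to 10500 CPM in NP, with 1 higher and 6 lower. Sums of 6 alternative activation genes were 1810 to 2100 CPM in PBS and 850 to 984 CPM in NP, with 4 lower, and those of 10 cell cycle genes were 1310 to 1380 and 492 to 728 CPM, with all 10 lower. Markers of T cells, B cells, dendritic cells, neutrophils, erythroid cells, fibroblasts and megakaryocytes summed to at most 4.1 CPM in any library, with Cd8a, Ly6g, Camp, Retnlg, Hbb-bs, Hbb-bt and Gp1bb among those at 0 in all, and all 6 mast cell and basophil markers were at 0. Endothelial markers summed to 17.1 to 17.9 CPM in PBS and 17.9 to 19.1 in NP, and osteoclast markers to 117 to 122 and 106 to 121 CPM, with Calcr at 0. The part of these shifts in the results below was not tested. In bulk RNA, fewer cells of a type and less RNA per cell cannot be told apart.

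Nanoparticle-treated macrophages had more RNA of sphingosine kinases Sphk1 and Sphk2, the S1P lyase Sgpl1, the receptor S1pr2 and the transporter Spns1, and less of the S1P phosphatase Sgpp1 and the receptor S1pr1. The Golgi sphingomyelin synthase Sgms1 fell while its relative Sgms2 rose, and the sphingomyelinase-like genes Smpdl3a and Smpdl3b both fell. In the synthesis of ceramide, Sptlc2 and Degs1 rose, and Sptlc1, Sptssa, Kdsr, Cers4 and Cers5 fell. The fall of Sptlc1 was small and passed in only 7 of 14 alternative settings. The falls of Kdsr, Smpdl3a, Smpdl3b and S1pr1 did not pass in all 14. All 36 genes passed the filter on low counts. Of these, 24 (66.7%) passed an adjusted p of 0.05 with limma voom, 10 higher (27.8%) and 14 lower (38.9%) in NP. Over all 14478 genes tested, 41.2% passed, 19.8% higher and 21.4% lower. These shares are also the background for the counts of marker lists, roles and further lists. The sphingolipid genes were mostly well expressed, and 23 of the 32 with a mean of at least 5 CPM passed, against 50.7% of all genes at that level. In 27 of the 36 (75.0%) the 3 NP libraries lay wholly above or below the 3 PBS libraries, as in 53.3% of all genes tested. That share covers genes of any level. It was not computed for genes of at least 5 CPM, the level of 32 of the 36.

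Most differences were small. Only Sphk1, Cers4 and Smpdl3b passed with a change of at least 1.5-fold, as 8.92% of all genes tested did, and only Sphk1 reached 2-fold. The median log2 fold change, NP minus PBS, was -0.0966 over the 36 genes and -0.0035 over all genes tested, and the median size of change regardless of sign was 0.2412 and 0.1633. Replicates were close: the median coefficient of variation of a sphingolipid gene was 3.12% in PBS and 4.64% in NP. The smallest change that passed was that of Sptlc1, at -0.11. Of the 24 genes that passed, NP 2 was the NP library nearest to the PBS mean in 17, and the change in NP 2 was a median 0.741 of that in NP 1 and NP 3. Without NP 2 the counts were 10 higher and 13 lower, and without NP 3 they were 10 higher and 9 lower. With PBS 1 alone in its group the median log2 fold change of the 36 genes was -0.0871.

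**Figure D1:**
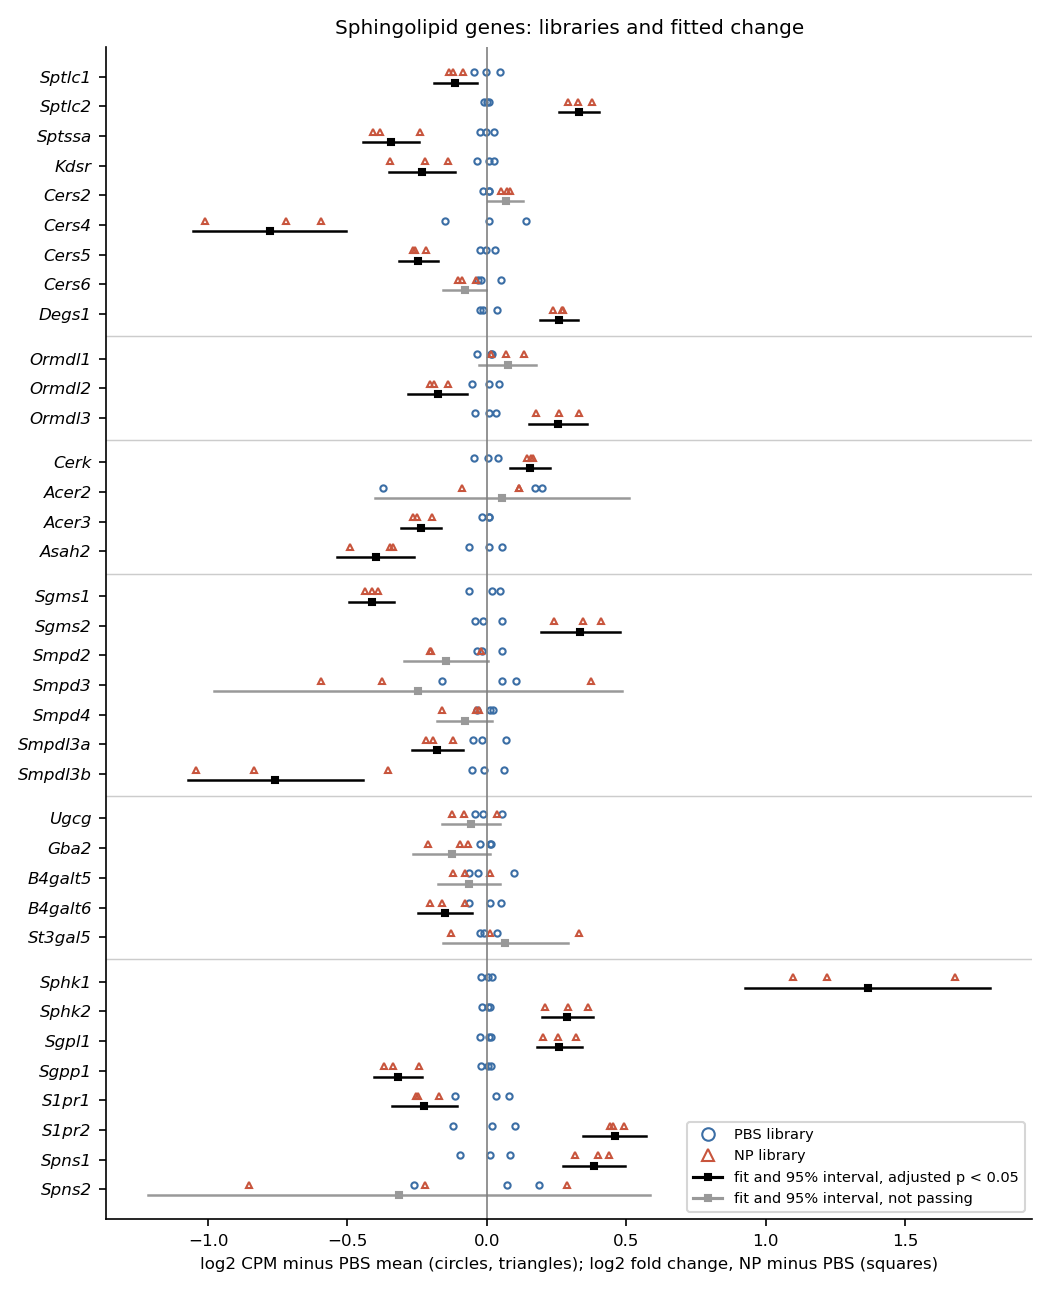
Each row is 1 gene, grouped from top to bottom as de novo synthesis, its inhibitors, ceramide kinase and ceramidases, sphingomyelin turnover, glycosphingolipid and S1P genes. Circles (PBS) and triangles (NP) are single libraries as log2(CPM + 0.05) minus the PBS mean, and squares with bars are the fitted log2 fold change with its 95% interval, black where the adjusted p was under 0.05. Sphk1 lies farthest to the right and Cers4 and Smpdl3b farthest to the left among the genes that passed.

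De novo synthesis was represented by 9 genes, of which 2 rose, 5 fell and 2 did not pass. Their log2 fold changes had a median of -0.11. In all 9 the groups did not overlap, as in 53.3% of all genes tested, whatever their level. The 9 include Cers2 and Cers6, which did not pass. The subunits of serine palmitoyltransferase, the first and rate-limiting enzyme, did not move together. Sptlc2, which carries the catalytic lysine, was at 152, 151 and 153 CPM in PBS 1 to 3 and 197, 186 and 190.0 CPM in NP 1 to 3. It rose by a log2 fold change of 0.33 (SE 0.032, adjusted p = 6.63e-05), and every NP library was well above every PBS library. Sptlc1, its obligate partner, was at 74.7, 77.0 and 79.7 CPM in PBS and 72.6, 71.0 and 70.3 CPM in NP. The groups were narrowly separate and the fitted change was -0.11 (SE 0.035, adjusted p = 0.0262). That call was lost without any one of PBS 2, PBS 3, NP 2 or NP 3 (adjusted p = 0.0524, 0.0916, 0.0789 and 0.135), with PBS 1 alone in its group (change -0.07, adjusted p = 0.319) and with a replicate block (0.0721). Sptssa encodes the small subunit that activates the enzyme and shapes its choice of acyl-CoA. It was at 101, 99.1 and 97.6 CPM in PBS and 74.7, 84.0 and 76.1 CPM in NP, a fall of 0.34 (SE 0.045, adjusted p = 0.00034). All NP libraries were below all PBS libraries, with NP 2 the highest of the NP libraries. Within each library, the ratio of Sptlc1 to Sptlc2 counts was 0.492, 0.512 and 0.522 in PBS and 0.369, 0.382 and 0.37 in NP. That ratio does not depend on library scaling, and it was lower in every NP library by a mean of 0.45 on the log2 scale.

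The later enzymes of the route also went both ways. Kdsr, the ketosphinganine reductase, was at 41.5, 42.8 and 43.3 CPM in PBS and 38.6, 33.4 and 36.5 CPM in NP. It fell by 0.23 (SE 0.053, adjusted p = 0.00623) with no overlap, and the call was lost with PBS 1 alone in its group (adjusted p = 0.128). Degs1 encodes the desaturase that turns dihydroceramide into ceramide. It was at 363, 361 and 375 CPM in PBS and 443, 442 and 432 CPM in NP, and rose by 0.26 (SE 0.030, adjusted p = 0.000188). Its NP libraries lay close together and clear of PBS.

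Ceramide synthases attach the second acyl chain and differ in the chain length they prefer. Cers5, which favours palmitoyl-CoA, was at 105, 106 and 109 CPM in PBS and 91.6, 89.2 and 88.6 CPM in NP, a fall of 0.25 (SE 0.031, adjusted p = 0.000281) with clearly separate groups. Cers4 was far scarcer, at 6.22, 7.62 and 6.94 CPM in PBS and 3.40, 4.56 and 4.17 CPM in NP. It fell by 0.78 (SE 0.122, adjusted p = 0.000919) to 0.583 times the PBS level, with every NP library under every PBS library. Of the exonic length of Cers4, 7.2% is shared on the opposite strand with the vomeronasal receptor pseudogene Vmn2r-ps89. PBS 2 and PBS 3 were high in receptor genes of that kind, and the part of this overlap in the Cers4 value was not tested. With PBS 1 alone the change was -0.65 (adjusted p = 0.0416). Cers2, the synthase for very long chains and the most abundant of the 4 per kilobase, did not pass: its PBS libraries lay at 200.3 to 204 CPM and its NP libraries at 209 to 214 CPM (adjusted p = 0.0813, 95% interval of the log2 fold change 0.0048 to 0.1313). Cers6, which also favours palmitoyl-CoA, was at 128 to 135 CPM in PBS and 122 to 127 CPM in NP (adjusted p = 0.097, interval -0.1554 to -0.0012). The log2 ratio of Cers4 to Cers2 within a library was lower in NP by 0.85 and that of Cers5 to Cers6 by 0.17, both without overlap.

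The ORMDL proteins bind serine palmitoyltransferase and hold it back when ceramide is plentiful. Of their 3 genes, 1 rose, 1 fell and 1 did not pass. Ormdl3 was at 38.6, 37.2 and 39.3 CPM in PBS and 48.3, 43.4 and 45.9 CPM in NP, and rose by 0.25 (SE 0.046, adjusted p = 0.00203), with every NP library above PBS. The call was lost with PBS 1 alone (adjusted p = 0.0569). Ormdl2 was at 19.3, 20.2 and 20.7 CPM in PBS and 17.6, 18.2 and 17.4 CPM in NP, a fitted change of -0.18 (SE 0.047, adjusted p = 0.0143). Its groups were 1.14 CPM apart at their nearest, and the call was lost without PBS 3 (adjusted p = 0.057), without NP 3 (0.0699) and with PBS 1 alone (0.23). Ormdl2 shares 66.7% of its exonic length with Dnajc14 on the opposite strand, and because the strand setting of the counting is not given, reads of the pair cannot be told apart. Dnajc14 was at 101 ± 2.4 CPM in PBS and 98.1 ± 1.82 CPM in NP (SD, n = 3 each). Ormdl1 was at 23.1 to 23.9 CPM in PBS and 23.9 to 25.9 CPM in NP and did not pass (adjusted p = 0.226). The count ratio of Ormdl2 to Ormdl3 was 0.501, 0.542 and 0.526 in PBS and 0.365, 0.419 and 0.379 in NP.

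Ceramide can be phosphorylated or hydrolysed, and of the 4 genes for these steps 1 rose, 2 fell and 1 did not pass. Cerk, the ceramide kinase, was at 241, 228 and 236 CPM in PBS and 263, 259 and 262 CPM in NP. It rose by 0.15 (SE 0.032, adjusted p = 0.00381), with the NP libraries close together and above all PBS libraries. With PBS 1 alone the adjusted p was 0.128. The alkaline ceramidase Acer3, which acts at the endoplasmic reticulum and Golgi, was at 79.7, 81.1 and 81.1 CPM in PBS and 67.1, 70.4 and 67.8 CPM in NP. It fell by 0.24 (SE 0.032, adjusted p = 0.000404), and the groups were 9.29 CPM apart at their nearest. Asah2, the neutral ceramidase of the cell surface, was at 17.1, 16.6 and 15.8 CPM in PBS and 11.7, 13.0 and 12.9 CPM in NP. Its NP libraries were all lower, a fall of 0.40 (SE 0.061, adjusted p = 0.000818). Acer2, the Golgi alkaline ceramidase, was near 1 CPM in both groups with overlapping libraries (adjusted p = 0.857).

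Sphingomyelin turnover was covered by 7 genes, of which 1 rose, 3 fell and 3 did not pass. Summed over the 7 the level was 499 to 527 CPM in PBS and 434 to 445 CPM in NP. That sum joins synthases and hydrolases, and its largest part was Smpdl3a, at a mean of 305 CPM in PBS and 269 CPM in NP. Sgms1 and Sgms2 transfer the phosphocholine head of phosphatidylcholine to ceramide, the former in the Golgi and the latter mainly at the plasma membrane. Sgms1 was at 135, 132 and 125 CPM in PBS and 96.5, 98.1 and 99.7 CPM in NP. It fell by 0.41 (SE 0.036, adjusted p = 4.21e-05) to 0.751 times the PBS level, and the lowest PBS library was 25.3 CPM above the highest NP library. Sgms2 was at 11.2, 11.4 and 12.0 CPM in PBS and 15.3, 13.6 and 14.6 CPM in NP, a rise of 0.34 (SE 0.063, adjusted p = 0.00251). Every NP library was above PBS, with NP 2 the nearest. The count ratio of Sgms1 to Sgms2 was therefore lower in every NP library: 12.1, 11.6 and 10.4 in PBS against 6.31, 7.22 and 6.81 in NP, a difference of -0.75 on the log2 scale.

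Smpdl3a and Smpdl3b resemble acid sphingomyelinase in sequence. Smpdl3a, a secreted and lysosomal phosphodiesterase, was at 301, 319 and 294 CPM in PBS and 280, 262 and 266 CPM in NP. It fell by 0.18 (SE 0.040, adjusted p = 0.00669) without overlap, and the call was lost without NP 3 (adjusted p = 0.0584) and with PBS 1 alone (0.0722). Smpdl3b, a lipid-anchored surface protein known as a brake on Toll-like receptor signalling in macrophages, was at 12.9, 13.3 and 13.9 CPM in PBS and 6.44, 10.4 and 7.44 CPM in NP. The PBS libraries were close together, and the NP libraries were lower but spread, with NP 2 reaching 0.458 of the change seen in NP 1 and NP 3. The fall was 0.76 (SE 0.139, adjusted p = 0.00215), or 0.591 times the PBS level, and with PBS 1 alone the adjusted p was 0.0633. The neutral sphingomyelinases did not pass. Smpd4 lay at 39.4 to 41.0 CPM in PBS and 36.1 to 39.6 CPM in NP (adjusted p = 0.183). Smpd2 lay at 11.5 to 12.3 and 10.2 to 11.6 CPM (adjusted p = 0.114), and 20.3% of its exonic length is shared with Mical1 on the opposite strand. Smpd3 was at 0.22 to 0.48 CPM over all libraries (adjusted p = 0.581, interval of the log2 fold change -0.9776 to 0.4854), and a change anywhere within that interval is compatible with these libraries.

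The promoters of these genes were searched for 3 short sequences, on both strands, in windows from 250 bases before to 50 after each annotated start (RefSeq, GRCm38.p6). A symbol in that set matched 32 of the 36 genes. The sequences were the E-box CACGTG, bound by several basic helix-loop-helix factors, the AP-1 site TGANTCA and the core of the antioxidant response element, TGACNNNGC, which can overlap an AP-1 site. Among 32851 promoters of all genes they occurred in 7.15%, 7.81% and 12.4%, and among all genes with a promoter in 8.09%, 8.97% and 14% (a gene can have several starts). Of the 32 sphingolipid genes, 7 (21.9%) held the E-box, namely Degs1, Sgms2 and Sphk1, which rose, Smpdl3b, which fell, and Cers2, Cers6 and Smpd2, which did not pass. The AP-1 site was in 5 (15.6%), namely Sgms2 and Sphk1, which rose, and Acer3, Asah2 and Sgms1, which fell, and the antioxidant response element core was in 2 (6.25%), Sphk1 and Ugcg. The 32 genes had 47 annotated starts, and 6 of the genes had more than 1. Sgms2 had 6 starts and Sphk1 had 5, so more sequence was searched in them than in a gene with 1 start. A match is a run of letters and not a shown binding site. The sphingomyelin synthase genes, which moved in opposite directions, are shown because both held an AP-1 site. The stretches lie upstream of an annotated start within the span of each gene, at chr19:32211035-32211094 (minus strand) for Sgms1 and chr3:131490767-131490826 (minus strand) for Sgms2, with the match in capitals.
Sgms1: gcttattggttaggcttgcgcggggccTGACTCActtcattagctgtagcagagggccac
Sgms2: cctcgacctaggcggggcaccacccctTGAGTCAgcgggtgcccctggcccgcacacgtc

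Of the 5 glycosphingolipid genes among the 36, 0 rose, 1 fell and 4 did not pass with limma voom, and their summed level was 587 to 642 CPM in PBS and 575 to 599 CPM in NP. Ugcg makes glucosylceramide, the parent of most glycosphingolipids, and was at 70.1 to 75.0 CPM in PBS and 66.2 to 74.0 CPM in NP (adjusted p = 0.368, interval of the log2 fold change -0.1622 to 0.0488). Gba2, the non-lysosomal glucosylceramidase, was at 10.3 to 10.6 and 9.06 to 10.0 CPM (adjusted p = 0.134). The lactosylceramide synthases B4galt5 and B4galt6 add galactose to that product. B4galt5, the more abundant per kilobase, was at 378 to 423 CPM in PBS and 363 to 398 CPM in NP with overlapping groups (adjusted p = 0.339). B4galt6 was at 101, 93.7 and 98.6 CPM in PBS and 84.9, 92.7 and 87.6 CPM in NP. Its lowest PBS and highest NP library were 0.988 CPM apart, and the fitted change was -0.15 (SE 0.043, adjusted p = 0.0202). The call did not survive leaving out PBS 1, PBS 3, NP 1 or NP 3 (adjusted p = 0.125, 0.0738, 0.113 and 0.121), nor leaving PBS 1 alone in its group (change -0.21, adjusted p = 0.0593) or a replicate block (0.0548). St3gal5, which sialylates lactosylceramide to the ganglioside GM3, was at 34.1 to 35.5 CPM in PBS and at 31.7, 43.6 and 35.0 CPM in NP 1 to 3. The high value was that of NP 2 and the groups overlapped (adjusted p = 0.633). The ratio of Ugcg to Sgms1 counts, which set the first enzymes of the competing uses of ceramide side by side, was 0.52, 0.541 and 0.6 in PBS and 0.767, 0.674 and 0.684 in NP. Sgms1 fell (log2 fold change -0.41) while Ugcg did not pass. The ratio is not scaled to length and does not rank the genes. Per kilobase, Ugcg was at 13.9 CPM and Sgms1 at 12.4 CPM in PBS.

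The S1P genes had the highest median log2 fold change of the 6 roles, at 0.27. Of the 8 genes, 5 rose, 2 fell and 1 did not pass, where 41.2% of all genes tested passed. In 7 the groups were without overlap, as in 53.3% of all genes tested, whatever their level. The summed level was 966 to 997 CPM in PBS and 1122 to 1194 CPM in NP. Most of that sum was the S1P lyase gene Sgpl1, at a mean of 578 CPM in PBS and 692 CPM in NP. Sphk1, the inducible cytosolic sphingosine kinase, lies at chr11:116530925-116536674 on the plus strand. It had 97, 74 and 90 counts in PBS 1 to 3 and 384, 227 and 248 counts in NP 1 to 3, which were 1.703, 1.735 and 1.753 CPM and 5.65, 3.76 and 4.10 CPM. The PBS libraries were nearly equal and each NP library was above all of them, with NP 1 the highest. The rise was 1.37 (SE 0.195, adjusted p = 0.000546), or 2.58-fold with a 95% interval of the log2 fold change from 0.93 to 1.80, and it kept its direction and call in all 14 alternatives tried. Sphk2, the isoform found in nucleus and mitochondria, was at 106, 108 and 108 CPM in PBS and 138, 124 and 131 CPM in NP. It rose by 0.29 (SE 0.041, adjusted p = 0.000504), with all NP libraries above PBS. It shares 13.0% of its exonic length with Dbp and 9.0% with Rpl18 on the opposite strand, and both had negative log2 fold changes, -1.09 (adjusted p = 2.09e-05) and -0.10 (adjusted p = 0.0527). The count ratio of Sphk1 to Sphk2 was 0.0162, 0.0162 and 0.0163 in PBS and 0.041, 0.0304 and 0.0313 in NP. Per kilobase of exonic length, Sphk1 was at 0.363 CPM in PBS and 0.943 CPM in NP and Sphk2 at 25.8 and 31.5 CPM.

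**Figure D2:**
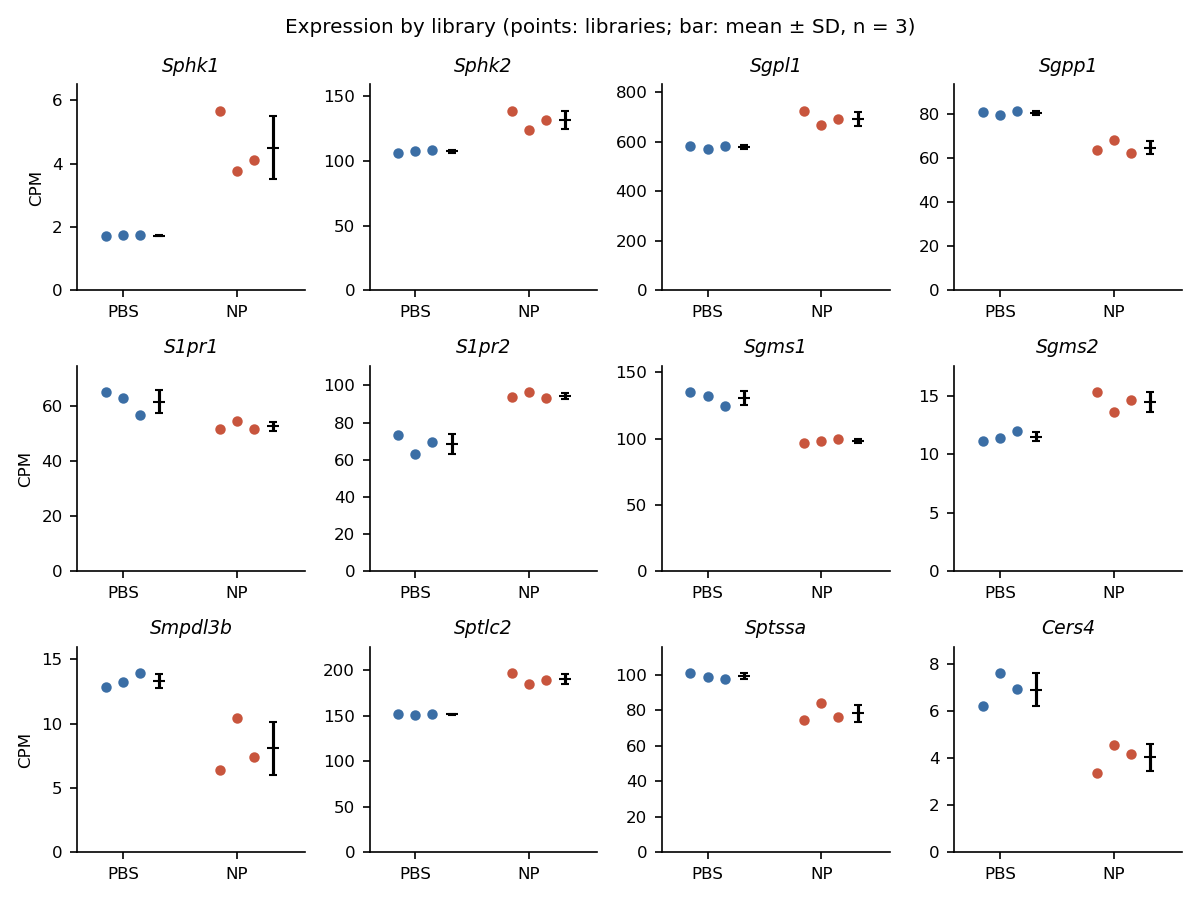
CPM of 12 genes in each library, with PBS in blue and NP in red, in the order of replicates 1 to 3, and black bars for the mean ± SD (n = 3). The axes start at 0. The 12 genes were picked from those that passed, so groups without overlap in all 12 panels are not a separate result. Over all genes tested, the groups did not overlap in 53.3%. For Sphk1, Cers4 and Smpdl3b the NP points also spread widely.

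Sphk1 held matches to all 3 of the searched sequences. Its stretches are shown with that of Degs1, another gene that rose and held the E-box. In Sphk1 the antioxidant response element core and the AP-1 site overlap in 1 run of letters at chr11:116531759-116531818 (plus strand), and the E-box is at chr11:116532322-116532381 (plus strand). Both lie upstream of annotated starts within the gene, of which the set lists 5. The Degs1 stretch is at chr1:182282206-182282265 (minus strand). Capitals mark the match, in the first line the antioxidant response element core with the AP-1 site as its last letters.
Sphk1 antioxidant response element core: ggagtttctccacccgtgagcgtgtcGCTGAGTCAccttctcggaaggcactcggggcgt
Sphk1 E-box: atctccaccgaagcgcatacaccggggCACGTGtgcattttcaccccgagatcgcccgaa
Degs1 E-box: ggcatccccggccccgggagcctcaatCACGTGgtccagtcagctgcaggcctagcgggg

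The enzymes that remove S1P went in opposite directions. Sgpl1, the lyase that cuts S1P irreversibly, was at 581, 569 and 584 CPM in PBS and 722, 665 and 689.8 CPM in NP. It rose by 0.26 (SE 0.036, adjusted p = 0.000451), with clearly separate groups. Sgpp1, the phosphatase that returns S1P to sphingosine, was at 80.8, 79.4 and 81.2 CPM in PBS and 63.8, 68.0 and 62.2 CPM in NP, a fall of 0.32 (SE 0.038, adjusted p = 0.000225). Its groups were 11.4 CPM apart at their nearest.

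The 2 receptors also diverged. S1pr1, which couples to Gi and guides migration toward S1P, was at 64.9, 62.9 and 56.8 CPM in PBS and 51.7, 54.6 and 51.6 CPM in NP. PBS 3 lay nearest to the NP group, and the fall was 0.22 (SE 0.052, adjusted p = 0.00697). Without NP 3 the change was -0.20 and the call was lost (adjusted p = 0.0642). S1pr2, which also couples to G proteins of the G12/13 family and restrains migration, was at 73.5, 63.0 and 69.4 CPM in PBS and 93.7, 96.3 and 93.0 CPM in NP. It rose by 0.46 (SE 0.051, adjusted p = 0.000142), and the lowest NP library was 19.5 CPM above the highest PBS library. The count ratio of S1pr1 to S1pr2 was 0.884, 1.0 and 0.818 in PBS and 0.552, 0.567 and 0.555 in NP, a difference of -0.69 on the log2 scale without overlap.

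Of the transporters, Spns1, which exports lysophospholipids from lysosomes, was at 88.5, 82.1 and 93.1 CPM in PBS and 119, 109 and 116 CPM in NP. It rose by 0.38 (SE 0.050, adjusted p = 0.000314), with all NP libraries above PBS. Spns2, the S1P exporter best known in endothelium, was near the limit of detection with 0.0994 to 0.279 CPM over the 6 libraries. Its groups overlapped (adjusted p = 0.566, interval of the log2 fold change -1.214 to 0.5863), and a change anywhere within that interval is compatible with these libraries.

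**Figure D3:**
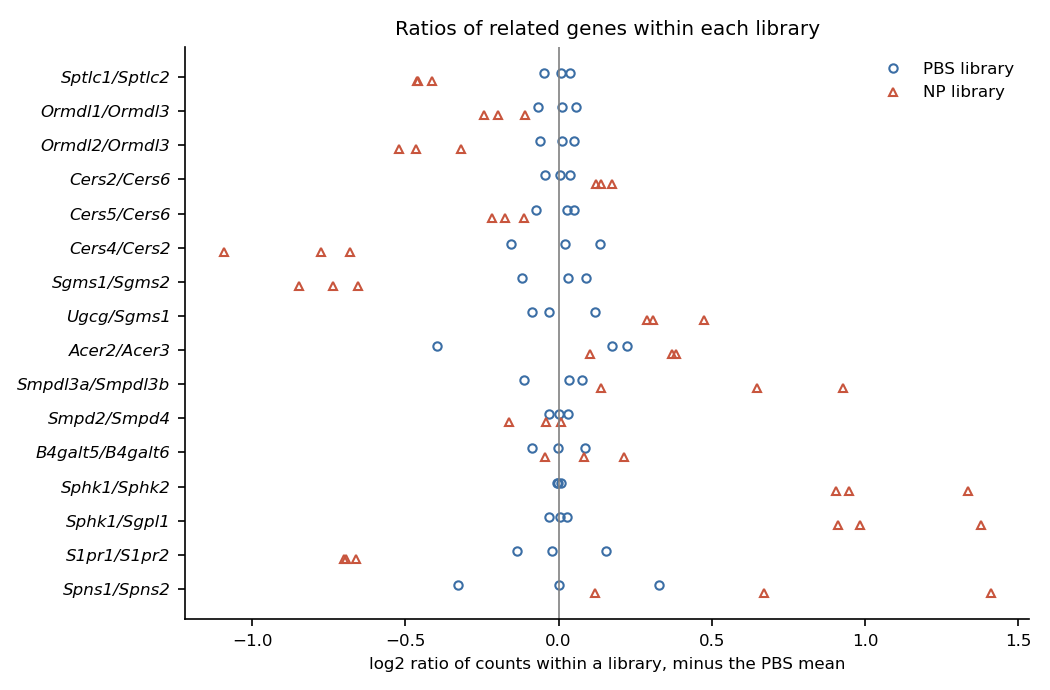
Each row is the log2 ratio of the counts of a pair of genes within a library, minus the PBS mean of that ratio, with circles for PBS and triangles for NP. In 12 of the 16 pairs the groups do not overlap, a share that was not computed for other pairs of genes. The 16 pairs were chosen with earlier results of these data known. Sphk1 against Sphk2 is higher in every NP library, and Cers4 against Cers2, Sgms1 against Sgms2 and S1pr1 against S1pr2 are lower.

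Levels can be set beside one another between genes only per length, here as CPM per kilobase of exonic length. On that scale Smpdl3a (148 ± 6.28, SD, n = 3) and Degs1 (141 ± 3.05) led in PBS and their libraries overlapped, followed by Sgpl1 (94.1 ± 1.301) and B4galt5 (91.9 ± 5.59), which also overlapped. Sptssa (65.3), Cers2 (55.0), Cerk (48.8), Cers5 (30.1), Sphk2 (25.8) and Spns1 (23.7) came next, each with all libraries above the following gene except Spns1, whose libraries overlapped those of Sptlc1 (21.7). In NP the order at the top was Degs1 (169 ± 2.39) and then Smpdl3a (131 ± 4.64). The lowest in PBS were Cers4 (0.565), Sphk1 (0.363), Acer2 (0.138), Smpd3 (0.0689) and Spns2 (0.0545), and of these Smpd3 and Spns2 overlapped. Sphk1, at 0.943 ± 0.211 in NP, was above Cers4, at 0.330 ± 0.0481. Exonic length is that of the merged exons of all annotated transcripts of a gene.

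**Figure D4:**
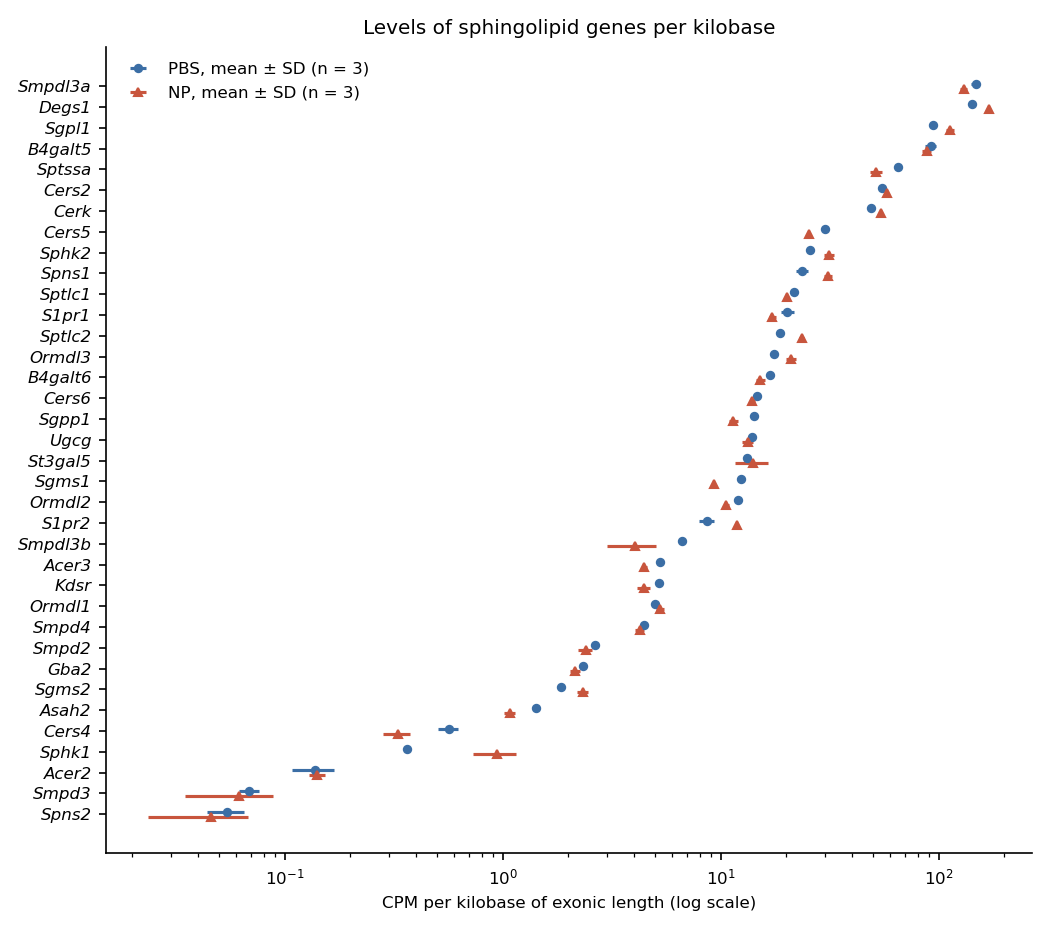
CPM per kilobase of exonic length on a log axis, with genes in the order of their PBS level and points for the mean ± SD (n = 3) of PBS (circles) and NP (triangles). Levels run from 148 for Smpdl3a to 0.0545 for Spns2 in PBS, and the gap between the groups is widest for Sphk1.

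Other genes of the pathway were followed in 5 lists, and their counts are to be read beside the 41.2% of all genes tested that passed. Of the synthesis and ceramide list, 3 of the 9 genes in the table were tested, 0 rose and 2 fell with limma voom: Rtn4, a reticulon that binds serine palmitoyltransferase, by 0.29 (adjusted p = 0.000463) and Aldh3a2, the fatty aldehyde dehydrogenase that handles the product of the S1P lyase, by 0.10 (adjusted p = 0.0447). Sptlc3, Sptssb, Cers1, Cers3, Fa2h and Acer1 were below the filter. Of the sphingomyelin and lipid transfer list, 6 of the 8 genes in the table were tested, 2 rose and 1 fell. Samd8, which makes ceramide phosphoethanolamine in the endoplasmic reticulum, was at 164, 168 and 171 CPM in PBS and 291, 235 and 258 CPM in NP. It rose by 0.64 (SE 0.066, adjusted p = 9.52e-05), the reverse of its relative Sgms1, with all NP libraries far above PBS. Plekha8, which carries glucosylceramide through the Golgi, rose by 0.22 (adjusted p = 0.0109), and Gltp, a cytosolic glycolipid transfer protein, fell by 0.16 (adjusted p = 0.00408).

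In the list of further glycosphingolipid synthesis genes, 10 of 14 were tested, 3 rose and 1 fell. St8sia1, the synthase of ganglioside GD3, had the largest fitted fall of the 10, from 6.83, 7.01 and 7.64 CPM in PBS to 2.93, 2.67 and 2.75 CPM in NP. It fell by 1.36 (SE 0.092, adjusted p = 1.54e-05), and the NP libraries were close together. B4galt3, a galactosyltransferase, rose by 0.24 (adjusted p = 0.00313) and the sialyltransferase St3gal1 by 0.17 (adjusted p = 0.0178). B3gnt5, which starts the lacto-series, rose by 1.504 (SE 0.411, adjusted p = 0.0161) but at 0.0702 to 0.156 CPM in PBS and 0.199 to 0.348 CPM in NP.

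Lysosomal breakdown of sphingolipids had 14 tested genes, of which 5 rose and 4 fell. All 14 had a mean of at least 5 CPM, a level at which 50.7% of all genes passed. Psap, whose product is cut into the saposins that present lipids to lysosomal hydrolases, went from 6959, 6761 and 7623 CPM in PBS to 10491, 9925 and 10042 CPM in NP. That rise of 0.51 (SE 0.048, adjusted p = 5.82e-05) was seen in every NP library. Gla, the lysosomal alpha-galactosidase, rose by 0.49 (adjusted p = 9.85e-05). The acid ceramidase Asah1 was at 262 to 271 CPM in PBS and 251 to 258 CPM in NP and did not pass (adjusted p = 0.0764). The acid sphingomyelinase Smpd1 did not pass either, at 41.4 to 45.7 and 41.3 to 43.6 CPM (adjusted p = 0.576).

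Of the further S1P genes, 11 of 14 were tested, 2 rose and 4 fell. Plpp3, a surface phosphatase of S1P and lysophosphatidic acid, was at 24.8, 26.6 and 28.6 CPM in PBS and 59.998, 50.3 and 55.1 CPM in NP. It rose by 1.05 (SE 0.074, adjusted p = 1.8e-05), with the groups 21.6 CPM apart at their nearest. Of the G proteins that act below S1pr2, Gna13 rose by 0.41 (adjusted p = 0.000404) and Gna12 fell by 0.39 (adjusted p = 0.000167). Abca1, a lipid exporter, fell by 0.55 (adjusted p = 0.000419). The receptor S1pr4 was at 0.945 to 1.81 CPM over the 6 libraries (adjusted p = 0.644) and the exporter Mfsd2b at 0.147 to 0.352 CPM (adjusted p = 0.411), and neither passed. S1pr3, S1pr5 and Apom were below the filter.

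**Figure D5:**
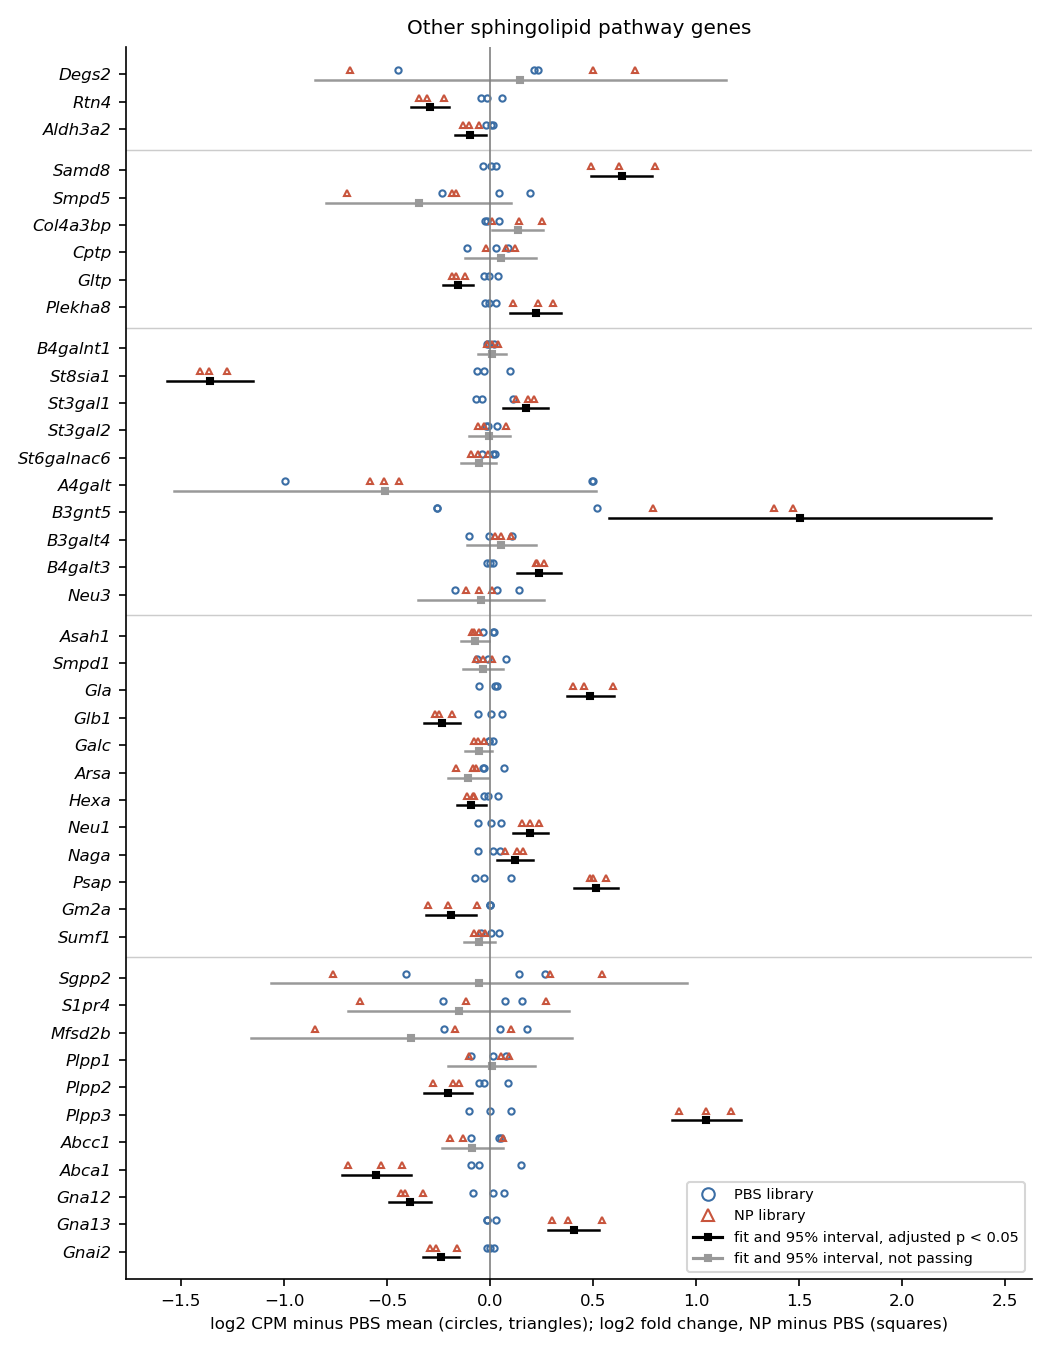
Tested genes of the 5 further lists, without those not reported here, from top to bottom synthesis and ceramide, sphingomyelin and transfer, glycosphingolipid synthesis, lysosomal degradation and S1P, drawn as log2(CPM + 0.05) minus the PBS mean for PBS (circles) and NP (triangles) libraries and as the fitted log2 fold change with its 95% interval (squares, black where the adjusted p was under 0.05). St8sia1 lies farthest to the left, and B3gnt5, with a wide interval, and Plpp3 lie farthest to the right.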

How the data were processed

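The values are expected counts per gene, which the authors deposited for all 6 libraries in 1 table, and every one was whole. The submitters' processing notes name cutadapt 2.3, STAR 2.7.8a, RSEM 1.3.3 and GRCm38. Whether the counting used strand is not given in the sources used here, and overlapping genes cannot be told apart. Of 55491 rows, 4 reporter constructs with 0 counts were left out. Gene positions and exonic lengths came from GENCODE M21.

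The design named a count test first and limma voom in its place should the unit check fail to read the quoted columns. It failed to read them, so limma voom was the main test. It was fitted over all 14478 genes with at least 0.171 CPM in 3 libraries and 15 counts in total, using limma 3.58.1 in R 4.3.3, group alone (4 residual degrees of freedom), trimmed-mean (TMM) factors of 0.979 to 1.02 and Benjamini-Hochberg adjustment. CPM of single genes and sums over roles use TMM-scaled sizes, and marker sums and 3-count limits use library totals. Such limits cover counting error only. The script was run on simulated counts in which libraries of a group differed only by depth and random noise. That run checks the code and not how the test behaves on these data. The smallest chi-square per gene between libraries of a group was 4.92, so none differed by as little as sampling noise.

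The members, lists, roles and pairs were chosen with earlier results of these data known. Every member is given; members that passed have each library's value, and in each further list up to 4 genes with the smallest p among those that passed are named, besides Asah1, Smpd1, Samd8, S1pr4 and Mfsd2b. A few genes that these rules take are not reported here. The background at 5 CPM and at 1.5-fold and the searched sequences were chosen after values were seen. Promoter sequences are from RefSeq. Alternatives were other scaling, filters, weights, limma-trend, a replicate block and leaving out libraries.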

Additional observations from a re-analysis of the deposited data

How the results depend on the processing

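Of the 24 sphingolipid genes that passed, 15 kept their direction and call in all 14 alternatives, and 0 turned sign. The lost calls of Sptlc1, Kdsr, Ormdl2, Ormdl3, Cerk, Smpdl3a, Smpdl3b, B4galt6 and S1pr1 after leaving out libraries stand beside their values. Without a low-count filter, Sptlc1, Ormdl2 and B4galt6 were also lost (adjusted p = 0.135, 0.0886 and 0.116) and Cers2 passed (adjusted p = 0.05). Cers6 passed with total counts as the scaling (0.0267) and with sample quality weights (0.0273). With PBS 1 as the only PBS library, where its spread is assumed to be that of the NP group, 2972 genes passed, 1197 higher and 1775 lower, and 8 sphingolipid genes were lower. Leaving out single libraries, the genes called lower ran from 1975 (without NP 3) to 3850, and the sphingolipid genes called lower from 9 (without NP 3) to 13. The median log2 fold change of de novo synthesis was -0.1475 with total counts. That of ceramide kinase and ceramidases was -0.1932 with PBS 1 alone and -0.187 (without PBS 3) to -0.0193 (without PBS 1) leaving out single libraries. That of sphingomyelin turnover was -0.0692 with quality weights and -0.1942 to -0.1022 leaving out single libraries. Among genes that did not pass, the sign turned for Acer2 (-0.161 with PBS 1 alone, -0.1438 to 0.1903 leaving out single libraries), Smpd3 (0.1679 with quality weights, -0.5497 to 0.0097), St3gal5 (-0.0517 to 0.1812) and Spns2 (-0.644 to 0.0839). The cause of these changes was not tested. With a replicate block, 5022 genes passed and the sphingolipid genes were 10 higher and 12 lower, with Sptlc1 and B4galt6 lost. Deviations from the group means did not correlate positively between same-numbered libraries (-0.147, -0.252 and -0.231 over 9928 genes). These values cannot decide whether libraries were paired, because deviations within a group of 3 are not independent and single libraries stood apart. In none of the 3 pairs did a library correlate best with its own number. The 10 highest genes per kilobase shared 7 with the 10 highest by plain CPM. A second count tool, listed as an alternative, was not run. Depth limits Acer2, Smpd3 and Spns2, at about 1 CPM or less.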
